A study of Homo sapiens with 14 samples.

Results

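Glucose use was described through 37 genes of glucose transport, glycolysis, the pentose phosphate branch and the handling of pyruvate and lactate, matched by symbol in a table of 63140 genes from HEK293T cells transfected with miR-34a. All 37 were counted often enough to be tested, among 18321 genes tested in all. HK1, the hexokinase found in most tissues, fell by 0.42 on the log2 scale with intact miR-34a. In the main fit it was the gene of the 37 that differed between the intact duplex and a duplex with a pair of bases removed. When the replicate number was kept as a block, TPI1 and SLC16A1 differed too, by -0.10 and -0.11. When a trend with the GC content and length of the 3' UTR was removed, TPI1, ENO1 and PFKFB2 differed beside HK1. Lactate dehydrogenase LDHA, the lactate carrier SLC16A1, triosephosphate isomerase TPI1, GAPDH and the kinase PFKFB3 fell with both duplexes. HK2, the pyruvate carrier subunit MPC2, the dehydrogenase subunit PDHB, the kinase PDK3 and transaldolase TALDO1 rose with both. The calls of HK2, PDK3 and TALDO1 with the abasic duplex were lost in 2, 6 and 5 of 18 other settings. That of PDHB with the intact duplex was lost in 2 of 19, both with the 3' UTR trend removed.

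HEK293T is a line of human embryonic kidney origin that carries the adenoviral E1 genes and the SV40 large T antigen. The cells were transfected with AllStars, a commercial negative control siRNA (control, n = 5 libraries), with a duplex of unmodified miR-34a (miR-34a-WT, n = 5), or with the same duplex in which bases 13 and 14 of the guide strand were exchanged for rSpacer, a ribose that carries no base (miR-34a-RS, n = 4). RNA was taken 24 h later in all 3 groups, and none of the groups is untransfected. The study asked what pairing beyond the seed adds to targeting. The labels do not say that replicates were separate cultures, so p-values here reflect how far these libraries vary, which may be technical variation.

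Glucose enters cells through the GLUT carriers, is trapped by hexokinases and is split by glycolysis into pyruvate. Pyruvate is either reduced by lactate dehydrogenase and exported as lactate, or carried into mitochondria and oxidised by pyruvate dehydrogenase, which the PDK kinases switch off. The microRNA miR-34a is induced by p53. It guides Argonaute to transcripts whose 3' UTR pairs with its seed, guide bases 2 to 8, and pairing of the bases from 13 on can add to it. HK1, HK2, GPI, PDK1 and LDHA have been reported as miR-34a targets.

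The guide is shown first because its seed and bases 13 and 14 define the comparison. It is hsa-miR-34a-5p of RefSeq (GRCh38.p14), encoded at chr1:9151735-9151756 on the minus strand. In the upper line capitals mark the seed and in the lower line the positions that carry no base in miR-34a-RS, counted from the 5′ end.
Guide, seed: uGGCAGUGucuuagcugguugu
Guide, positions 13 and 14: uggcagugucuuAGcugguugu

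Matches to the seed were sought in the longest annotated 3' UTR of each gene (GENCODE 29, GRCh38). A 7mer-m8 match pairs with guide bases 2 to 8, and an 8mer has in addition an A opposite guide base 1. Of the 37 genes, 8 had such a match, or 21.6%, against 17.7% of the 13608 tested genes with a 3' UTR. These 30-base sites are printed, on the strand of the transcript, because 6 of the 8 genes fell with 1 duplex or both and PFKM and PGM1 did not. Capitals mark the letters that match the seed.
HK1, first match, chr10:69401530-69401559, plus strand: gaaatgtattatcaccagcagaCACTGCCg
HK1, second match, chr10:69401555-69401584, plus strand: tgccgggcctccctcccgggggCACTGCCt
LDHA, chr11:18407516-18407545, plus strand: agttctgccacctctgacgcacCACTGCCA
SLC16A1, chr1:112913116-112913145, minus strand: tgcattttgagtgtttatagatCACTGCCc
PFKFB3, chr10:6234944-6234973, plus strand: ggagatactatagaaaggagaaCACTGCCt
PGD, chr1:10419789-10419818, plus strand: ggacattccatgtgcctcatggCACTGCCA
PGAM1, chr10:97432915-97432944, plus strand: ctctgctcttctgcagtcaggtCACTGCCt
PFKM, chr12:48146246-48146275, plus strand: tgctggctgtctgaaaaattgtCACTGCCA
PGM1, chr1:63659803-63659832, plus strand: gacgagcagtgcatttacaaggCACTGCCA

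Library totals ran from 22.24 to 36.26 M counts, and no 2 replicates agreed within sampling noise. Beyond counting error, replicates varied with a common coefficient of variation of 0.062. Changes are log2 fold changes with their standard error (SE) from the quasi-likelihood test of edgeR, adjusted by Benjamini-Hochberg over all tested genes, and a gene is said to have risen or fallen where its adjusted p was under 0.05. Unless another setting is named, calls of genes are those of the main fit, which does not use the replicate number. Levels are CPM, counts scaled to the size of each library with TMM factors, given in order of replicate number: 1 to 5 for control and miR-34a-WT, and 1, 2, 3 and 5 for miR-34a-RS. All 7 HEK293T markers listed were detected, at a summed 501 to 534 CPM in control libraries. The 8 fibroblast markers listed summed to 25.2 to 34.4 CPM in control libraries, and of these only COL1A2 was at 0, in every group. The 8 blood cell markers listed summed to 2.79 to 3.26 CPM in control libraries. Of these only CD3E was at 0, in control and miR-34a-WT. Enough counts for a test were found for 3 fibroblast and 2 blood cell markers.

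Against control, 10 of the 37 genes fell and 6 rose with miR-34a-WT, where 21.3% of all tested genes fell and 18.9% rose. With miR-34a-RS 9 fell and 6 rose, beside 18.4% and 16.2% of all tested genes. When the fit took out how each library's counts follow the GC content and length of the 3' UTR, 4415 genes rose and 3312 fell of 13608 with miR-34a-WT, against 3469 and 3904 of 18321 without that step, and of the 37 genes 11 rose and 8 fell. In the fit without it the shares of the 37 that fell were 27.0% and 24.3% and those that rose 16.2% in both comparisons, near the shares over all tested genes. The median log2 fold change was -0.02 and -0.04 in the same order, beside -0.02 and -0.01 over all tested genes. Of the 18 genes that passed in either comparison, 13 passed in both in the same direction, 3 only with miR-34a-WT and 2 only with miR-34a-RS. Both comparisons use the same control libraries, so their values are given side by side and are not independent.

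Summed over the 37 genes, transcripts of glucose use made up 1.29% ± 0.054 (SD, n = 5) of counts in control, 1.15% ± 0.051 (n = 5) with miR-34a-WT and 1.15% ± 0.059 (n = 4) with miR-34a-RS. The summed CPM differed from control by -10.6% and -11.98%, and by -12.1% and -12.8% without ENO1, PKM and GAPDH, the 3 genes with the highest CPM. A sum follows its abundant genes: mean CPM of LDHA went from 1204 to 780 and 785 and of TPI1 from 908 to 692 and 640. PKM stood at 1764, 1754 and 1734. Of the 37 log2 changes, 23 and 22 were below 0, with medians of -0.02 and -0.04, so the sums do not describe the typical gene. In bulk RNA, fewer cells with a transcript and less of it per cell cannot be told apart.

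**Figure D1:**
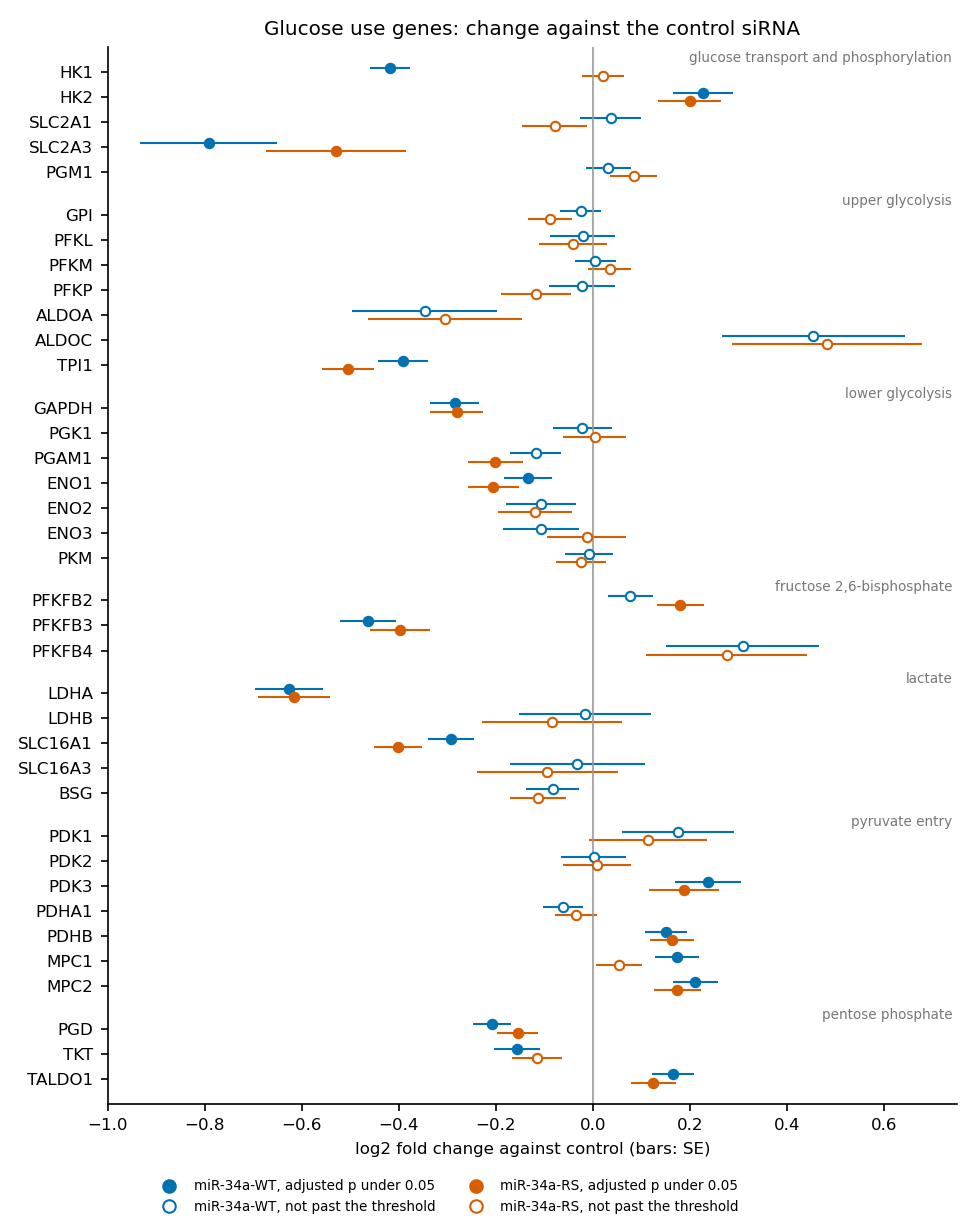
Log2 fold change against control of the 37 genes, grouped by role, with miR-34a-WT in blue and miR-34a-RS in orange; bars are SE and filled points passed an adjusted p under 0.05. HK1 is the gene where the blue point lies far left at -0.42 and the orange one near 0.

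At the first step, HK1 fell with miR-34a-WT and HK2, the inducible hexokinase, rose with both duplexes. HK1 (chromosome 10) stood at 146, 156, 147, 148 and 157 CPM in control, 110.0, 113, 109, 116 and 116 with miR-34a-WT and 144, 157, 154 and 156 with miR-34a-RS. Every miR-34a-WT library lay below every other library, and the miR-34a-RS libraries spanned the range of control. The mean fell from 151 ± 5.32 (SD, n = 5) to 113 ± 3.40 CPM with miR-34a-WT, a log2 change of -0.42 (SE 0.041, adjusted p = 8.02e-09, edgeR). With miR-34a-RS the log2 change was 0.02 (95% interval -0.07 to 0.11), and with the 3' UTR trend removed it was 0.09 and passed (adjusted p = 0.0218, edgeR).

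HK2 was at 134, 146, 116, 146 and 132 CPM in control, at 169, 155, 138, 166 and 162 with miR-34a-WT and at 163, 161, 139.7 and 156 with miR-34a-RS. Replicate 3 was the lowest library in each group, and the ranges of the 3 groups overlap. Its log2 changes were 0.23 (SE 0.062, adjusted p = 0.00473, edgeR) and 0.20 (SE 0.065, adjusted p = 0.0200, edgeR). The second call was lost without control replicate 3 (log2 0.16, adjusted p = 0.0542, edgeR) and without miR-34a-RS replicate 2 (log2 0.18, adjusted p = 0.0601, edgeR). With the replicate number as a block both passed (0.23, adjusted p = 1.39e-06, and 0.22, adjusted p = 7.93e-06, edgeR). No seed match was found in the 3' UTR of HK2.

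The ratio of HK2 to HK1 within a library does not depend on scaling. On the log2 scale it averaged -0.17 ± 0.13 (SD, n = 5) in control, 0.48 ± 0.10 (n = 5) with miR-34a-WT and 0.02 ± 0.13 (n = 4) with miR-34a-RS. Libraries of miR-34a-WT ran from 0.34 to 0.62, above all others. Of 30 two-sided exact permutation tests, 10 ratios in 3 comparisons, this ratio passed in the comparison of miR-34a-WT with control (difference 0.65) and in that of the 2 duplexes (miR-34a-RS minus miR-34a-WT, -0.46), each at adjusted p = 0.048 and with p = 0.00794, the smallest these groups allow. It did not pass for miR-34a-RS against control (0.18, adjusted p = 0.198, exact permutation).

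Of the glucose carriers, SLC2A3 (GLUT3) fell and SLC2A1 (GLUT1), the more abundant one, passed in no comparison. SLC2A3 was at 5.17, 6.60, 4.71, 5.44 and 5.21 CPM in control, 2.75, 3.17, 2.37, 4.04 and 3.30 with miR-34a-WT and 3.35, 5.29, 3.21 and 3.32 with miR-34a-RS. The miR-34a-WT libraries lay below all control libraries, whereas miR-34a-RS replicate 2 lay inside the control range. It changed, in log2, by -0.79 (SE 0.141, adjusted p = 6.77e-05, edgeR) and -0.53 (SE 0.145, adjusted p = 0.00572, edgeR), and the second was -0.72 without that library. SLC2A1 ranged from 63.6 to 81.5 CPM in control, with log2 changes of 0.04 and -0.08. The log2 ratio of SLC2A3 to SLC2A1 differed from control by -0.85 with miR-34a-WT (adjusted p = 0.048, exact permutation), and by -0.46 with miR-34a-RS, which did not pass (adjusted p = 0.130, exact permutation). PGM1, which links glucose 6-phosphate to glycogen, has an 8mer and changed by 0.03 and 0.08, neither past the threshold, though the second passed with the 3' UTR trend removed (0.10).

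**Figure D2:**
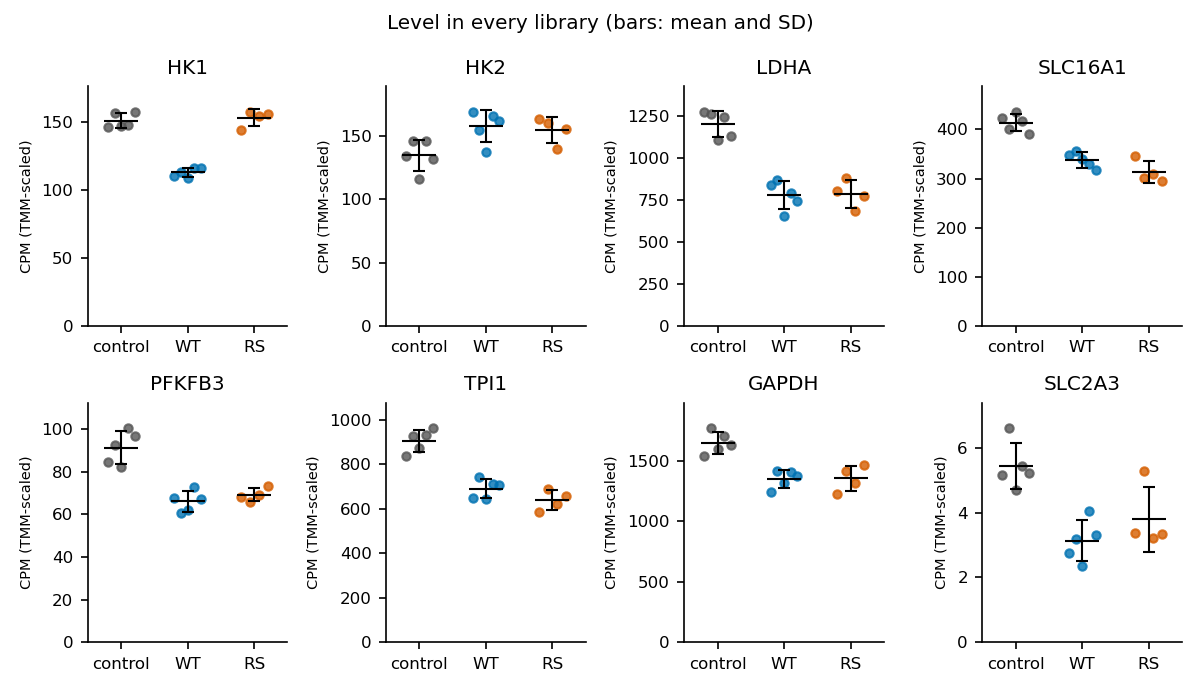
CPM in every library of 8 genes, with 0 at the foot of each axis; points are libraries and bars the group's mean and SD (WT is miR-34a-WT, RS is miR-34a-RS). HK1 is low with miR-34a-WT alone, LDHA, SLC16A1, PFKFB3, TPI1 and GAPDH are low with both duplexes, HK2 is slightly higher with both, and 1 miR-34a-RS library stands high for SLC2A3.

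In upper glycolysis, from glucose 6-phosphate to the triose phosphates, TPI1 fell and the other 6 genes passed in neither comparison with control. TPI1, which interconverts the triose phosphates, stood at 840.4, 930.4, 873, 930.5 and 963 CPM in control, 649, 742, 646, 712 and 709.6 with miR-34a-WT and 588, 690.5, 621 and 659 with miR-34a-RS. All libraries of both duplexes were below all control libraries. Against control the changes were, in log2, -0.39 (SE 0.051, adjusted p = 7.38e-07, edgeR) and -0.50 (SE 0.054, adjusted p = 4.78e-08, edgeR). Its 3' UTR holds only a 6mer, a match to guide bases 2 to 7.

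GPI, the isomerase after hexokinase, was at 412, 453, 461, 453 and 439.7 CPM in control, 434, 419.9, 445, 456 and 424 with miR-34a-WT and 415, 400.4, 447 and 406 with miR-34a-RS. Its groups overlap, and its log2 changes of -0.03 and -0.09 did not pass. Without miR-34a-RS replicate 3 the second was -0.12 (adjusted p = 0.0488, edgeR). The phosphofructokinases PFKL, PFKM and PFKP, the committed step, changed by -0.02, 0.01 and -0.02 with miR-34a-WT and by -0.04, 0.03 and -0.12 with miR-34a-RS, none past the threshold. PFKM has an 8mer, though only in 2 of its 10 annotated 3' UTRs, and its 95% interval with miR-34a-WT was -0.08 to 0.09.

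The aldolases varied widely between libraries. ALDOA ranged from 23.4 to 30.01 CPM in control and 14.7 to 25.7 with miR-34a-WT (log2 -0.35, SE 0.150, adjusted p = 0.0833, edgeR), and ALDOC from 4.94 to 7.86 and 6.30 to 10.8 (log2 0.45, SE 0.189, adjusted p = 0.0694, edgeR). With miR-34a-RS they changed by -0.30 and 0.48. Neither passed, but ALDOC passed with miR-34a-WT without control replicate 2 (0.56) or miR-34a-WT replicate 3 (0.57), and with miR-34a-RS without control replicate 2 (0.59) or miR-34a-RS replicate 1 (0.60) or 3 (0.59); ALDOA passed with miR-34a-WT without replicate 5 of it (-0.42). With the 3' UTR trend removed ALDOC passed in both comparisons (0.53 and 0.51). With the replicate number as a block ALDOC passed in both too (0.44 and 0.49), and ALDOA passed with miR-34a-WT (-0.36) but not with miR-34a-RS (-0.29). Their ratio, ALDOC to ALDOA, rose by 0.83 with the intact and 0.79 with the abasic duplex, each at adjusted p = 0.048 in the exact permutation tests. Exons of ALDOA share 53.5% of their bases with other annotated genes, so its level and this ratio are uncertain.

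In lower glycolysis, GAPDH and ENO1 fell with both duplexes, PGAM1 with miR-34a-RS, and PGK1 and PKM passed in none. GAPDH, which makes the first NADH of the pathway, was at 1537, 1769, 1594, 1701 and 1629 CPM in control, 1239.6, 1413, 1315, 1409 and 1377 with miR-34a-WT and 1226, 1415, 1317 and 1463 with miR-34a-RS. No library of either duplex reached the control range. The changes in log2 were -0.29 (SE 0.051, adjusted p = 6.57e-05, edgeR) and -0.28 (SE 0.054, adjusted p = 2.13e-04, edgeR). With the 3' UTR trend removed the first was -0.18. GAPDH is often used to scale other transcripts, and its 3' UTR holds no seed match. The annotation lists 65 pseudogene copies of GAPDH, which held counts equal to 0.824% of its own, and an opposite-strand gene covers 14.2% of its exon bases.

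ENO1, the enolase of proliferating cells, stood at 2267, 2606, 2424, 2622 and 2629 CPM in control, 2129, 2362, 2202, 2408 and 2338 with miR-34a-WT and 2009, 2237, 2179 and 2285 with miR-34a-RS. Control replicate 1 lay inside the range of both other groups. Its log2 changes were -0.13 (SE 0.049, adjusted p = 0.0323, edgeR) and -0.20 (SE 0.052, adjusted p = 0.00319, edgeR). The first was lost in 12 of 19 other settings, among them leaving out control replicate 2, 4 or 5 or miR-34a-WT replicate 1, 2 or 3 (-0.13 to -0.10), and it was -0.03 with the 3' UTR trend removed. PGAM1, with a 7mer-m8, ranged from 104 to 121 CPM in control and 94.3 to 102 with miR-34a-RS (log2 -0.20, adjusted p = 0.00681, edgeR), groups that do not overlap. With miR-34a-WT it changed by -0.12 (adjusted p = 0.0811, edgeR), and it passed without control replicate 1 (-0.14) or miR-34a-WT replicate 4 (-0.15). PGK1 and PKM, the ATP-making kinases, changed by -0.02 and -0.01 with miR-34a-WT and by 0.00 and -0.03 with miR-34a-RS, and ENO2 and ENO3 passed in none.

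Fructose 2,6-bisphosphate activates phosphofructokinase, and the PFKFB enzymes make and remove it. PFKFB3, whose kinase activity dominates, was at 84.5, 92.2, 82.3, 100.3 and 96.6 CPM in control, 67.7, 60.5, 62.1, 72.8 and 67.3 with miR-34a-WT and 68.0, 65.9, 69.2 and 73.5 with miR-34a-RS. All libraries of both duplexes lay below all control libraries. It changed, in log2, by -0.46 (SE 0.058, adjusted p = 4.10e-07, edgeR) and -0.40 (SE 0.061, adjusted p = 1.21e-05, edgeR).

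PFKFB2, an isoform known from heart, moved the other way: it was at 38.7, 38.1, 38.3, 36.5 and 36.8 CPM in control, 41.4, 36.8, 39.7, 39.9 and 41.1 with miR-34a-WT and 45.1, 42.3, 41.3 and 42.0 with miR-34a-RS. The miR-34a-RS libraries were above all control libraries, while the miR-34a-WT libraries overlap them. It rose by 0.18 with miR-34a-RS (SE 0.048, adjusted p = 0.00484, edgeR) and changed by 0.08 with miR-34a-WT, which passed without miR-34a-WT replicate 2 (0.12) or with the 3' UTR trend removed (0.11). PFKFB4 varied widely, from 16.4 to 26.1 CPM in control alone, and its changes of 0.31 and 0.28 did not pass in the main fit. The first passed without miR-34a-WT replicate 3 (0.42) and with the 3' UTR trend removed (0.48). With the replicate number as a block both passed (0.31 in each, adjusted p = 4.20e-06 and 1.23e-05, edgeR).

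For lactate, LDHA and its exporter SLC16A1 fell and LDHB, SLC16A3 and BSG passed in none. LDHA, the subunit that favours lactate formation, was at 1275, 1260.2, 1106, 1243 and 1133 CPM in control, 838, 869, 655, 793 and 743 with miR-34a-WT and 803, 879.7, 685 and 774 with miR-34a-RS. The groups do not overlap with control, and replicate 3 was the lowest library in each of the 3 groups. With an 8mer, LDHA had log2 changes of -0.63 (SE 0.069, adjusted p = 1.32e-07, edgeR) and -0.62 (SE 0.074, adjusted p = 6.06e-07, edgeR).

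SLC16A1, the lactate carrier MCT1, stood at 422, 401, 436, 417 and 391 CPM in control, 348, 356, 339, 329 and 317 with miR-34a-WT and 346, 302, 310.1 and 295 with miR-34a-RS. Every library of either duplex lay below every control library. Against control the changes were, in log2, -0.29 (SE 0.047, adjusted p = 1.50e-05, edgeR) and -0.40 (SE 0.050, adjusted p = 4.93e-07, edgeR). BSG, the chaperone that brings this carrier to the membrane, changed by -0.08 and -0.11. LDHB, the heart-type subunit, changed by -0.02 and -0.08 with 95% intervals of -0.31 to 0.28 and -0.40 to 0.23, and SLC16A3 (MCT4) was near the low end of detection at 1.66 ± 0.0950 CPM in control (SD, n = 5). A same-strand gene covers 33.4% of the exon bases of LDHB.

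**Figure D3:**
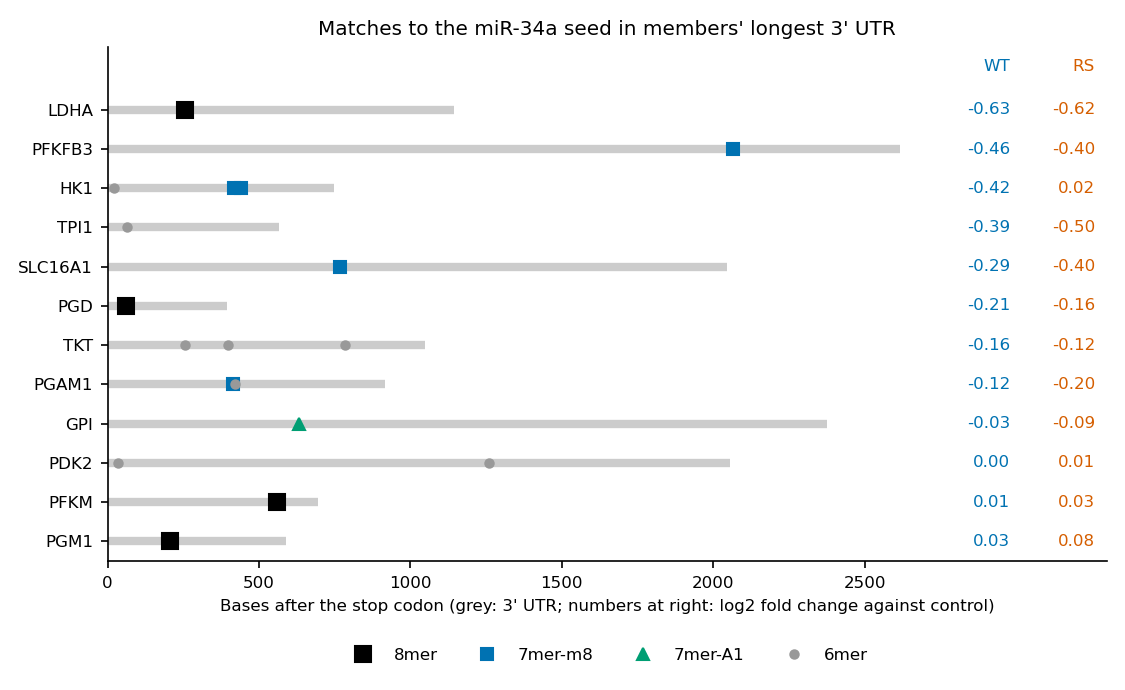
Places of seed matches in the longest 3' UTR of the 12 genes with any match, in bases after the stop codon, with the log2 fold changes against control at the right (blue miR-34a-WT, orange miR-34a-RS). LDHA and PGM1 both carry an 8mer in the first 300 bases and changed by -0.63 and 0.03 with miR-34a-WT.

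Of the 8 genes with a 7mer-m8 or 8mer, 5 fell with each duplex and none rose. With miR-34a-WT 52.2% of the 820 tested genes with an 8mer fell and 42.0% of the 1593 with a 7mer-m8 as their best match, beside 2 of 4 and 3 of 4 among the genes of glucose use. Of the 8828 genes without any match 17.3% fell, beside 3 of 25 here, SLC2A3, GAPDH and ENO1. The 6 genes that rose with each duplex hold no match.

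Of the 7 genes of pyruvate entry into mitochondria and its control by the PDK kinases, none fell, while 4 rose with the intact and 3 with the abasic duplex. Of all tested genes, 18.9% and 16.2% rose and 21.3% and 18.4% fell, in the same order. MPC2, a subunit of the pyruvate carrier, was at 40.9, 37.1, 39.8, 40.5 and 37.4 CPM in control, 45.7, 47.6, 44.5, 43.3 and 45.5 with miR-34a-WT and 45.3, 45.3, 42.5 and 43.7 with miR-34a-RS. Both duplex groups lay above all control libraries, with log2 changes of 0.21 (SE 0.046, adjusted p = 5.44e-04, edgeR) and 0.17 (SE 0.048, adjusted p = 0.00601, edgeR). The gene DCAF6 on the other strand, which had more counts than MPC2, shares 22.5% of the exon bases of MPC2, so with a kit that does not mark strand the level of MPC2 is uncertain.

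MPC1, its partner, was at 58.8, 57.7, 60.5, 59.2 and 54.8 CPM in control, 64.9, 64.6, 68.5, 65.3 and 65.1 with miR-34a-WT and 65.7, 57.5, 59.4 and 59.1 with miR-34a-RS. The miR-34a-WT libraries were above all control libraries and those of miR-34a-RS were not. It rose by 0.17 with miR-34a-WT (SE 0.045, adjusted p = 0.00310, edgeR) and changed by 0.05 with miR-34a-RS. The difference between the duplexes, -0.12, did not pass (adjusted p = 0.270, edgeR). PDHB, a subunit of pyruvate dehydrogenase, rose by 0.15 and 0.16, and PDHA1, the subunit that the PDK kinases phosphorylate, changed by -0.06 and -0.04. With the 3' UTR trend removed, the miR-34a-WT calls of MPC1 (0.06, adjusted p = 0.117, edgeR) and PDHB (0.06, adjusted p = 0.126, edgeR) were lost.

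PDK3, a kinase that inactivates pyruvate dehydrogenase, was at 72.4, 72.9, 67.5, 69.5 and 68.8 CPM in control, 92.5, 87.8, 79.0, 83.6 and 71.3 with miR-34a-WT and 92.8, 82.3, 75.7 and 69.2 with miR-34a-RS. Replicate 5 of both duplex groups lay at the control level and the other libraries above it. The changes in log2 were 0.24 (SE 0.068, adjusted p = 0.00649, edgeR) and 0.19 (SE 0.071, adjusted p = 0.0442, edgeR). The second call was lost without control replicate 3, 4 or 5 (0.18 to 0.19), without miR-34a-RS replicate 1 (0.12), without replicate 2 of that group (0.17) and with the 3' UTR trend removed (0.20, adjusted p = 0.0701, edgeR).

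PDK1 was at 54.0, 55.8, 41.6, 57.3 and 51.6 CPM in control, 68.3, 57.7, 46.5, 61.3 and 60.4 with miR-34a-WT and 63.6, 61.4, 43.9 and 56.5 with miR-34a-RS. Replicate 3 was lowest in every group and the groups overlap. Its changes of 0.18 (adjusted p = 0.252, edgeR) and 0.11 (adjusted p = 0.519, edgeR) did not pass in the main fit, and the first passed without miR-34a-WT replicate 3 (0.27). With the replicate number as a block PDK1 passed as higher in both comparisons (0.17, adjusted p = 5.78e-04, and 0.13, adjusted p = 0.0123, edgeR). PDK2 changed by 0.00 and 0.01, and with the 3' UTR trend removed it passed as higher in both comparisons (0.18 and 0.12). In the main fit, of the 5 genes reported as targets, HK1 and LDHA fell with miR-34a-WT and LDHA alone of them with miR-34a-RS. There HK2 rose with both, and GPI and PDK1 passed in neither.

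In the pentose phosphate branch, PGD fell and TALDO1 rose with both duplexes. PGD, which makes NADPH and ribulose 5-phosphate and has an 8mer, was at 256, 255, 263, 254 and 250.0 CPM in control, 215, 229, 225, 214 and 224 with miR-34a-WT and 212, 237, 229 and 239 with miR-34a-RS. All duplex libraries lay below all control libraries. Its log2 changes were -0.21 (SE 0.040, adjusted p = 1.60e-04, edgeR) and -0.16 (SE 0.043, adjusted p = 0.00577, edgeR). The second was lost without miR-34a-RS replicate 1 (-0.11, adjusted p = 0.0566, edgeR) and with no filter on low counts (adjusted p = 0.0887, edgeR). With the 3' UTR trend removed the first was -0.14.

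TALDO1, transaldolase, stood at 156, 157, 157, 155 and 153 CPM in control, 163, 187, 174, 170.5 and 179 with miR-34a-WT and 156, 176, 172 and 174 with miR-34a-RS. Control libraries were close together, and 1 miR-34a-RS library lay among them. It changed, in log2, by 0.17 (SE 0.044, adjusted p = 0.00357, edgeR) and 0.12 (SE 0.046, adjusted p = 0.0388, edgeR). The second was lost without control replicate 4 or 5 or miR-34a-RS replicate 2, 3 or 5 (0.11 to 0.13). TKT, transketolase, fell with miR-34a-WT (log2 -0.16, adjusted p = 0.0103, edgeR), a call lost without control replicate 2 (-0.13) or with the 3' UTR trend removed (-0.00), and changed by -0.12 with miR-34a-RS, which passed without control replicate 1 (-0.14) or miR-34a-RS replicate 3 (-0.15).

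Of 64 further genes of these pathways listed, 50 were tested, and 16 rose and 9 fell with miR-34a-WT, beside 14 and 7 with miR-34a-RS. Over all tested genes 18.9% rose and 21.3% fell, and 16.2% and 18.4%, in the same order. The largest fall among the 4 with the smallest adjusted p was in RPIA, ribose 5-phosphate isomerase, which went from 59.1 ± 3.10 (SD, n = 5) to 30.9 ± 2.28 CPM (n = 5) with miR-34a-WT and 28.4 ± 1.73 (n = 4) with miR-34a-RS, log2 changes of -0.94 (adjusted p = 5.53e-13, edgeR) and -1.06 (adjusted p = 3.69e-13, edgeR). RPE, the epimerase that uses the same substrate, rose by 0.41 and 0.34. MINPP1, a phosphatase of inositol phosphates and 2,3-bisphosphoglycerate, rose by 0.36 and 0.30, and SHPK, sedoheptulokinase, by 0.47 and 0.43. Between the duplexes none of the 50 passed in edgeR, where few of all tested genes did (1.03% higher and 0.535% lower with miR-34a-RS).

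Of 37 regulators of the pathway listed, 36 were tested, and 5 rose and 11 fell with miR-34a-WT, beside 7 and 9 with miR-34a-RS, against the same 18.9% and 21.3% and 16.2% and 18.4% of all tested genes. The deacetylase SIRT1, a widely studied miR-34a target, fell by 0.95 and by 0.68, and it was the only one of the 36 to pass between the duplexes (0.27 higher with miR-34a-RS, adjusted p = 0.00888, edgeR). TXNIP, which restrains glucose uptake, fell by 0.66 and by 0.52, while its relative ARRDC4 rose by 0.46 with each duplex.

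Between the duplexes, HK1 alone of the 37 genes passed in the main fit, which does not pair libraries by replicate number. It was higher with miR-34a-RS by 0.44 (SE 0.043, 95% interval 0.35 to 0.53, adjusted p = 8.02e-07, edgeR), and each of the 4 miR-34a-RS libraries lay above each of the 5 miR-34a-WT libraries. Over all tested genes 1.03% were higher and 0.535% lower with miR-34a-RS. With the 3' UTR trend removed, 356 genes were higher and 422 lower, against 188 and 98 without that step, and of the 37 genes TPI1 (-0.16, adjusted p = 0.0140, edgeR) and ENO1 (-0.14, adjusted p = 0.0197, edgeR) passed as lower and PFKFB2 (0.13, adjusted p = 0.0455, edgeR) as higher beside HK1. With neither that step nor the replicate block, none of the 37 was lower by edgeR or by DESeq2, while 5 of them, HK1 included, had an unadjusted p under 0.05 in the main fit of edgeR. The 95% intervals of the other 36 differed in width: the lowest bound was -0.39, for PFKFB4, and the highest 0.58, for SLC2A3, whereas the interval of PFKM was -0.06 to 0.12. The fit that keeps the replicate number as a block made TPI1 (-0.10, adjusted p = 0.0361, edgeR) and SLC16A1 (-0.11, adjusted p = 0.0473, edgeR) pass as lower with miR-34a-RS and left HK1 at 0.44.

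**Figure D4:**
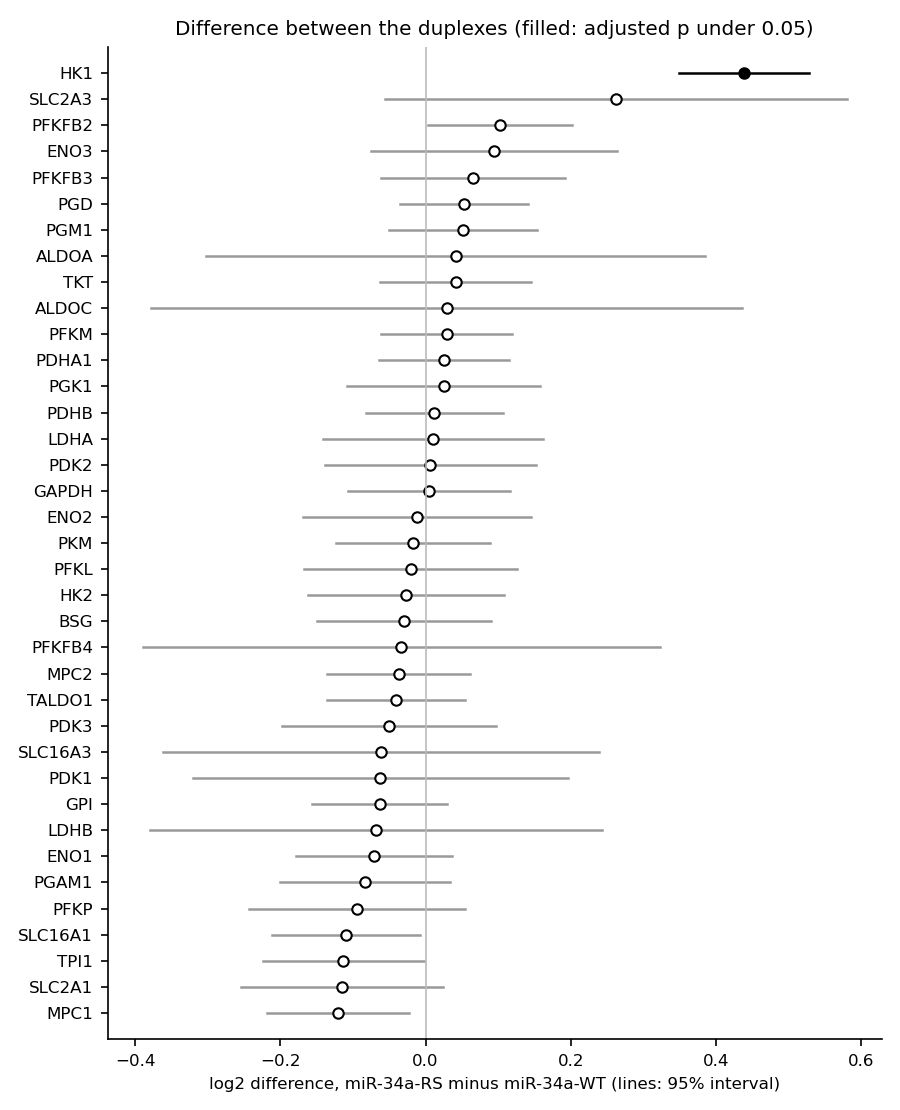
Log2 difference of miR-34a-RS minus miR-34a-WT for each of the 37 genes, with 95% intervals; the filled point passed an adjusted p under 0.05. HK1 at 0.44 is the filled point, and the other interval that reaches furthest, that of SLC2A3, ends at 0.58.

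The first HK1 site is shown again because it is the one with the longest run of further pairing. The run of unbroken pairs was sought against guide bases 9 to 22, with at most 15 bases between it and the match and without wobble pairs. Capitals mark the run and the seed match.
HK1, first match with run: gaaatgtattatcACCAGCagaCACTGCCg
The run is 6 bases long, pairs with guide bases 14 to 19, of which base 14 is absent in miR-34a-RS, and lies 3 bases from the seed match. At the second HK1 match and at those of the other 7 genes the runs were 2 to 4 bases long. AGCT, the full match to the 4 guide bases from 13 on, was found within 15 bases upstream of none of these seed matches, the first HK1 match included. The search for runs was set up after the HK1 values were seen. Of 70 tested genes with such a run of at least 6 that takes in base 13 or 14, 4 were higher with the abasic duplex, or 5.71%, against 66 of 2343 with a match and no such run, or 2.82%; HK1 is 1 of the 4, and without it 3 of 69 were higher, or 4.35%. The median differences of the 70 and the 2343 were 0.03 and 0.00.

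Levels can be compared between genes only per length of exon. On CPM per kb of annotated exon in control, GAPDH (552), ENO1 (476) and TPI1 (336) were highest and SLC16A3 (0.184) lowest. Among isozymes, HK1 (24.0) and HK2 (22.2) had overlapping libraries, LDHA (194) exceeded LDHB (27.0), and PFKL (22.6), PFKP (16.3) and PFKM (16.2) stood in that order, the last 2 with overlapping libraries. A same-strand gene covers 33.4% of the exon bases of LDHB, so its level is uncertain.

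**Figure D5:**
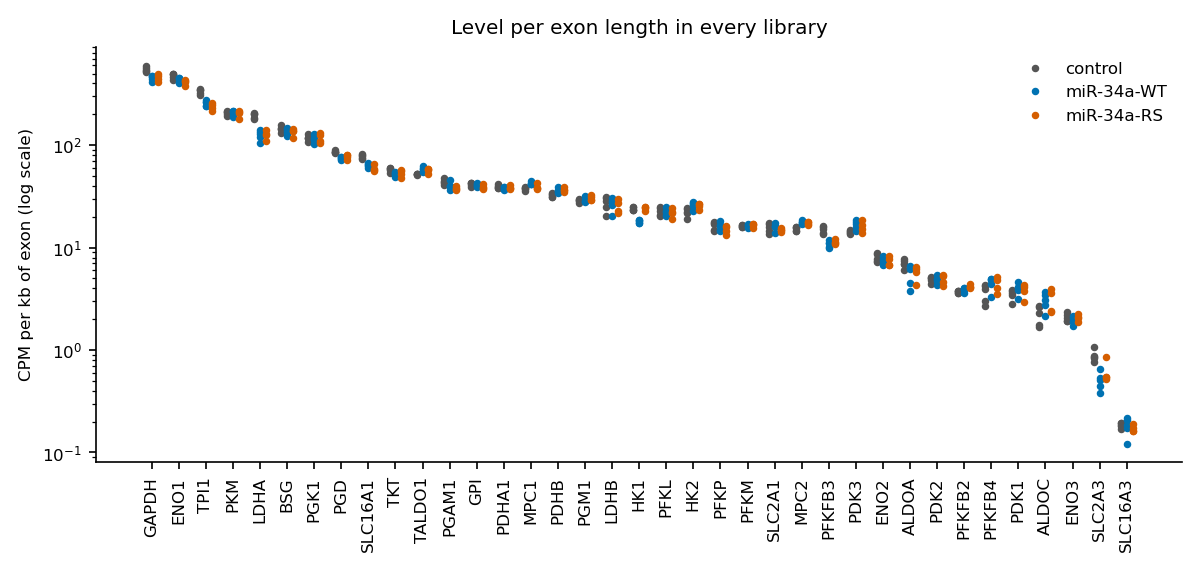
CPM per kb of exon in every library on a log axis, genes ordered by their control mean (control grey, miR-34a-WT blue, miR-34a-RS orange). The order runs from GAPDH at 552 to SLC16A3 at 0.184 in control, a span far wider than any shift between groups.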

How the data were processed

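Whole-number read counts per gene of 14 libraries came in a single table of 63140 genes that the authors deposited. STAR 2.7.11a, Subread 2.0.3 with featureCounts, edgeR 3.42.4 and GRCh38 are named, per the submitters' processing notes. The annotation release and strand setting are not given in the sources used here, and per the labels' protocols the library kit, TruSeq RNA v2, does not mark strand, so overlapping genes can exchange reads. The deposited counts were analysed as they are. Genes were filtered with filterByExpr by group, scaled with TMM and fitted in 1 edgeR 4.0.16 model of 3 group means over 14 libraries (R 4.3.3, robust glmQLFit, glmQLFTest). P-values were adjusted by the Benjamini-Hochberg method over 18321 genes, with the threshold at 0.05, and all 37 members were tested. Ratios of isozymes were compared by exact permutation of libraries with scipy 1.17.1.

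The members and all other gene lists were chosen with earlier results of these data known. Values in every library are given for the members past the threshold with the smallest adjusted p, up to 15, and for the 5 reported targets; listed genes are named up to 4 per list by the smallest adjusted p, and 1 gene of these is not reported here. Symbols, exon lengths and 3' UTRs came from GENCODE 29. On simulated counts with 50 genes changed 1.25-fold in each comparison, 62%, 44% and 68% were recovered (miR-34a-WT against control, miR-34a-RS against control, and between the duplexes). With 50 genes changed 1.5-fold it was 84%, 82% and 64%, in the same order. These shares come from a single draw per comparison. Libraries were simulated independently, without any effect shared by replicate number.

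Replicate numbers come from the sample titles, and the labels do not say what they mark. Between the 2 duplex groups, libraries of the same number deviated together from their group means over 11259 genes (correlations 0.37 to 0.72 in 4 pairs), and the numbers were taken to pair these samples. The main fit and the main permutation tests did not use this pairing, whereas the replicate block did. Between the duplexes 286 genes passed in the main fit and 1254 with the block. Alternatives were DESeq2 1.42.0, other scaling and filters, the replicate block, removal of a spline trend of each library on the GC content and length of 3' UTRs, fits of 2 groups, and leaving out each library.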

Additional observations from a re-analysis of the deposited data

Results flagged for a closer look

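Among 111 groups of 4 or 5 libraries, 1 for each of the 37 genes in each of the 3 groups, 2 held a library that stood apart by Dixon's test, of which chance gives about 1 in 20 groups. SLC2A3 was at 5.29 CPM in miR-34a-RS replicate 2, where the other libraries of that group lay between 3.21 and 3.35. The same library had the lowest share of mitochondrial counts, 2.19%, and its part in the SLC2A3 value was not tested. MPC1 was at 68.5 CPM in miR-34a-WT replicate 3, where the others of that group lay between 64.6 and 65.3.

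HK1 was marked because the changes with the 2 duplexes differed in a test of the difference itself, by 0.44 on the log2 scale, with all 4 miR-34a-RS libraries above all 5 miR-34a-WT libraries. Leaving out any library, or any other setting run, kept the difference between 0.37 and 0.48 and past the threshold.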

How the results depend on the processing

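The replicate number as a block, and removal of the 3' UTR trend, changed counts most; the causes were not tested. Against control, the genes of the 37 that rose with miR-34a-WT numbered 6, 11 with the trend removed and 15 with trend and block, and GPI (0.10), PFKL (0.10) and PKM (0.12) then turned to rises, in the latter fit with BSG (0.0694); there GPI stood at 0.0962, PFKL at 0.0957 and PKM at 0.124. With miR-34a-RS, 6 rose, 10 with the block, 12 with block and trend, and 3 to 7 with 1 library left out, 3 without miR-34a-RS replicate 2. Between the duplexes, 286 genes passed, beside 1254 with the block, 778 with the trend removed, 1434 with both, 488 by DESeq2 and 142 to 730 with 1 library left out (730 without miR-34a-RS replicate 1, 142 to 176 without replicate 2, 3 or 5 of that group or replicate 1 or 3 of miR-34a-WT). Of the 37, 2 were then lower with the block, 2 with the trend removed and 5 with both, and 2 were higher with the trend removed, with or without the block. The block changed no other call between the duplexes than those of TPI1 and SLC16A1. Against control the numbers share no stated meaning: same-numbered libraries correlated at -0.16 to 0.56 (miR-34a-WT) and -0.00 to 0.48 (miR-34a-RS), and 3 of 5 and 2 of 4 correlated best with their own number. There the block took the genes that rose and fell to 4169 and 4648 with miR-34a-WT and to 3678 and 4037 with miR-34a-RS. ALDOC (0.44 and 0.49), PFKFB4 (0.31 in both) and PDK1 (0.17 and 0.13) then passed as higher in both comparisons, ENO2 (-0.11 and -0.12) and BSG (-0.08 and -0.11) as lower in both, ALDOA (-0.36) and PGAM1 (-0.12) as lower with miR-34a-WT, and PFKP (-0.11) and TKT (-0.11) as lower and PGM1 (0.09) as higher with miR-34a-RS. No call of the 37 genes against control was lost with the block. Every isozyme ratio that passed kept its direction, but at adjusted p of 0.0595 or more in most fits with 1 library left out and 0.25 in the paired sign permutation, where fewer libraries raise the smallest p.

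Other settings left the counts within 1.5 times. A sign that differed between settings where neither value passed was not counted as a change of direction. The 3' UTR sites came from the longest annotated transcript, and any 3' UTR of a gene added ALDOA as the ninth with a match. The PFKM site lies in 2 of 10 annotated 3' UTRs, that of PFKFB3 in 3 of 10 and both HK1 matches in 5 of 6. Which of these 3' UTRs the cells use was not tested. SLC16A3 and SLC2A3, at 1.66 and 5.42 CPM in control, have the lowest levels of the 37, and counting error limits them first.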

Other observations

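Target genes of the hypoxia factor HIF-1 outside glucose metabolism moved in both directions. Of 18 listed, 17 were tested, and 4 rose and 3 fell with miR-34a-WT, beside 2 and 4 with miR-34a-RS, where 18.9% and 21.3%, and 16.2% and 18.4%, of all tested genes rose and fell. NDRG1, a stress-induced gene, changed by -0.80 and -0.75 in the same order. LOX, a collagen-crosslinking oxidase, changed by -0.61 and -0.51, and MXI1, an antagonist of MYC, by -0.37 and -0.26. KDM3A, a histone demethylase, rose by 0.35 and 0.29. Each of these values passed in edgeR after adjustment, and none of the 17 passed between the duplexes, where 1.03% of all tested genes were higher and 0.535% lower with miR-34a-RS. In RefSeq promoter windows (GRCh38.p14, 300 bases, several per gene), 34 of the 37 genes matched, with 68 windows. Searched on both strands, ACGTG, the core of the HIF element, was found in 35.3% of them against 21.4% of 35116 windows, GCGTG in 44.1% against 36.5%, and CACGTG, which contains ACGTG and is read by MYC and other factors, in 13.2% against 7.26%.

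Libraries with the same replicate number shared levels of some of these genes across groups, a pattern looked for after the values were seen. Among replicates 1, 2, 3 and 5, replicate 3 had the lowest CPM in all 3 groups for 9 of the 37 genes, or 24.3%, against 2.73% of all tested genes: HK2, SLC2A1, SLC2A3, PGM1, PGK1, ENO2, LDHA, PFKFB4 and PDK1. The same held for 6 of the 17 HIF-1 targets, KDM3A, FAM162A, LOX, BNIP3L, BNIP3 and P4HA1. BNIP3, which marks mitochondria for removal, was at 57.2, 73.0 and 66.2 CPM in replicate 3 of control, miR-34a-WT and miR-34a-RS, and at 63.1, 89.5 and 84.7 CPM in replicate 1. Replicate 1 was lowest in all 3 groups for another 9 of the 37, among them GAPDH, ENO1 and PKM, against 11.1% of all tested genes.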
